A study of Drosophila melanogaster with 17 samples.

Results

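The 10 genes described here make, remove or regulate reactive oxygen species: Sod1, Sod2, Cat, Irc, Duox, Nox, Prx2, Prx4, Gclc and cnc. They were chosen by FlyBase symbol and found through their gene identifiers among 23925 features, of which 23882 were listed for heads, 18354 for guts and 18311 for both. All 10 were listed for both tissues and passed the filter on low counts in both.

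Poly-A RNA of heads and guts, dissected from mated males of Drosophila melanogaster, was sequenced in a study of how olfactory neurons act on circadian rhythm. All flies were kept at 25 °C and 60% humidity in 12 h of light and 12 h of dark, 20 to a vial, with new vials every other day, and were sampled at ZT8, meaning 8 h after lights on. Heads came from orco2 and w1118 flies at day 40 and from orco2 and w1118 flies at day 3, with 2 libraries in each group. Guts came from per01, orco2 and w1118 flies at day 40, with 3 libraries in each group. The orco2 allele is a mutation of Orco, the co-receptor of odorant receptors, carried by the whole fly, per01 is a nonsense allele of the clock gene per, and w1118 is a white-eyed strain that served as the control.

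Orco was read at 24 to 46 counts in orco2 heads and at 90 to 251 counts in w1118 heads, while its gut counts of 0 to 17 checked nothing. The per counts do not check the per01 label, since per01 still makes transcript. They were lower in both mutants, at 1411 to 1917 counts in orco2 heads against 4414 to 6344 counts in w1118 heads. In guts they were 673 to 783 counts in per01 and 364 to 535 counts in orco2 against 1415 to 3086 counts in w1118. The gene w was read at 525 to 934 counts in orco2 heads and 0 to 13 counts in w1118 heads, and at 64 to 149 counts in per01 guts, 311 to 571 counts in orco2 guts and 0 to 28 counts in w1118 guts. The strains therefore differed at w as well, and an effect of the named allele and one of the strain cannot be told apart. Summed transcripts of 10 photoreceptor markers reached 58697 to 101384 CPM in heads and 36.7 to 169 CPM in guts, and those of 9 enterocyte markers 9016 to 192412 CPM in guts and 17.2 to 679 CPM in heads. Within heads, the enterocyte markers separated libraries of 1 group, at 610 and 17.2 CPM in orco2 at day 3 and at 155 and 628 CPM in w1118 at day 40. Total counts ran from 27082849 to 33932201 per head library and from 25792664 to 41693684 per gut library.

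Superoxide leaks from mitochondria or is made on purpose by NADPH oxidases, and superoxide dismutases turn it into hydrogen peroxide. Catalases and peroxiredoxins then break the peroxide down, the second of these families with electrons drawn through the thioredoxin system, and glutathione serves as the other main thiol buffer. In the fly gut, Duox releases oxidants onto microbes and Irc limits the damage to the host. Heads hold fat body, glia, photoreceptors and neurons, which these libraries do not separate. The transcription factor cnc, the fly relative of mammalian Nrf2, is held back by Keap1 and switches on glutathione and detoxification genes under oxidative stress.

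Levels are TMM-scaled CPM, the counts of a gene per 1000000 counts of its library, and changes are log2 fold changes ± SE from edgeR's quasi-likelihood test with Benjamini-Hochberg adjustment over all genes tested in the tissue. The test gives no SE, so each was derived as the size of the change divided by the square root of its F statistic. The words rose and fell are kept for adjusted p under 0.05. No label says that the libraries of a group came from separate cultures, so each p measures the spread of libraries alone and that spread may be technical. Fewer cells of a type and less RNA per cell cannot be told apart in dissected tissue.

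Coordinates of the genes are those of the BDGP6 annotation. Sod1 (FBgn0003462, chromosome 3L, 11112281 to 11113740, minus strand) encodes the cytosolic copper and zinc enzyme, and Sod2 (FBgn0010213, chromosome 2R, 16772785 to 16773915, minus strand) the mitochondrial manganese enzyme. Cat (FBgn0000261, chromosome 3L, 18822604 to 18828188, plus strand) encodes catalase, and Irc (FBgn0038465, chromosome 3R, 17002875 to 17007208, plus strand) a secreted haem peroxidase named the immune-regulated catalase. Duox (FBgn0283531, chromosome 2L, 2815970 to 2830248, minus strand) and Nox (FBgn0085428, chromosome 2R, 16307269 to 16316485, plus strand) encode the fly's NADPH oxidases. Prx2 (FBgn0040309, chromosome X, 13329824 to 13331994, plus strand), also called Jafrac1, encodes a cytosolic peroxiredoxin. Prx4 (FBgn0040308, chromosome 3L, 3042359 to 3044174, plus strand), also called Jafrac2, encodes a peroxiredoxin of the secretory pathway. Gclc (FBgn0040319, chromosome X, 8102181 to 8116147, minus strand) encodes the catalytic subunit of glutamate-cysteine ligase, the enzyme that limits glutathione synthesis. The gene cnc (FBgn0262975, chromosome 3R, 23185580 to 23226711, minus strand) has 16 annotated transcripts, so its counts do not separate the stress-responsive CncC isoform from the shorter ones. Exons on the opposite strand cover 173 bases of Nox (2.63% of its exon bases, CG8060), 62 bases of Prx4 (4.88%, scramb2) and 63 bases of cnc (0.686%, Irk1), and the strand setting of the counting is not given, so those stretches are uncertain.

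Per kilobase of exon, Sod1 had the highest mean level of the 10 genes in all 7 groups, from 436.5 CPM per kb in orco2 guts to 934.5 CPM per kb in per01 guts, and its libraries overlapped those of Cat, next in order, in per01 and orco2 guts. Cat, Prx2 and Sod2 held ranks 2 to 4 in every group but old orco2 heads, where Irc ranked above Sod2 with overlapping libraries, and Cat and Prx2 overlapped in all 4 head groups. With the longest transcript in place of all exons, Prx2 reached 179 CPM per kb in young w1118 heads, against 132 CPM per kb, and so lay above Cat at 136 CPM per kb. At the other end, Nox had the lowest mean in 6 groups and Duox in per01 guts, and the libraries of Duox and Nox overlapped in orco2 and w1118 guts. In heads all Duox libraries lay above all Nox libraries, with means of 1.52 and 0.0546 CPM per kb in orco2 at day 40. Irc held rank 4 with 143.8 CPM per kb in orco2 heads at day 40 and rank 7 with 20.4 CPM per kb in w1118 heads at day 3, where Gclc and cnc stood near it at 22.9 and 22.6 CPM per kb.

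**Figure D1:**
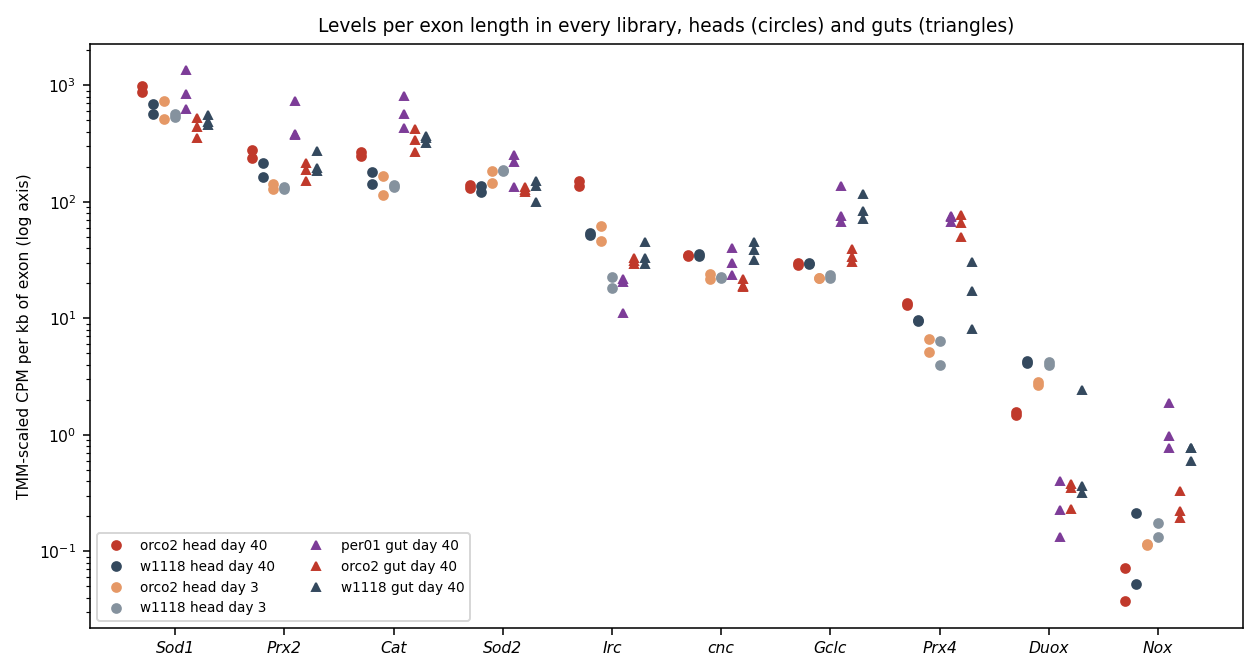
TMM-scaled CPM per kilobase of exon (log axis) of each gene in every library, with circles for the 4 head groups and triangles for the 3 gut groups. Sod1 leads on average in every group, and Duox and Nox lie lowest, at means of 1.52 and 0.0546 CPM per kb in orco2 heads at day 40.

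In heads the superoxide dismutases did not move together. Sod1 stood at 723 and 649 CPM in orco2 against 415 and 508 CPM in w1118 at day 40, and at 376 and 541 CPM in orco2 against 390 and 417 CPM in w1118 at day 3. The old orco2 libraries lay above all others. Sod1 did not pass in orco2 against w1118 at day 40 (0.57 ± 0.18, adjusted p = 0.08 by edgeR). It passed there with DESeq2, no filter and only the libraries compared, but not with voom, library totals or the replicate block. Nor did it pass at day 40 against day 3 in orco2 (0.58 ± 0.18, adjusted p = 0.0524 by edgeR). That age change passed with DESeq2, DESeq2 size factors, voom, no filter and the replicate block, but not with library totals or only the libraries compared. Sod2 stood at 142 and 133 CPM in orco2 against 122 and 138 CPM in w1118 at day 40, and at 186 and 149 CPM in orco2 against 187 and 191 CPM in w1118 at day 3. Every library at day 40 lay below every library at day 3. Sod2 fell with age in w1118 (-0.54 ± 0.13, adjusted p = 0.0314 by edgeR), while orco2 gave -0.28 ± 0.13 (adjusted p = 0.16). The w1118 call was lost without any 1 of its 4 libraries (adjusted p from 0.11 to 0.176 by edgeR). Head groups held 2 libraries each, so every fit that left out a head library rested on 1 library in that group, assumed to vary like the other groups. Without orco2 day 3 replicate 1, both genes passed against w1118 at day 3, Sod1 at 0.42 (adjusted p = 0.0459 by edgeR) and Sod2 at -0.35 (adjusted p = 0.0449). Without orco2 day 3 replicate 2, both passed with age in orco2, Sod1 at 0.91 (adjusted p = 0.00167) and Sod2 at -0.40 (adjusted p = 0.0191).

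Irc was read below Cat in every head group and was the member with the most regular head pattern. Irc reached 358 and 329 CPM in orco2 against 125 and 129 CPM in w1118 at day 40, and 110 and 149 CPM in orco2 against 43.3 and 54.2 CPM in w1118 at day 3. The old orco2 heads were highest, the young w1118 heads lowest, and the groups overlapped only between old w1118 and young orco2. Irc rose in orco2 against w1118 by 1.44 ± 0.17 at day 40 (2.71-fold, adjusted p = 0.00223 by edgeR) and by 1.41 ± 0.17 at day 3 (2.66-fold, adjusted p = 0.00271). With age it rose by 1.41 ± 0.17 in orco2 (adjusted p = 0.00173 by edgeR) and by 1.38 ± 0.17 in w1118 (adjusted p = 0.00231). Each of these 4 calls held under each of the 12 alternatives run for it, with adjusted p of at most 0.0402. Summed transcripts of 11 fat body markers, the storage, yolk and lipid carrier genes of the head fat, were also highest in old orco2 heads and lowest in young w1118 heads, at 8394 to 9807 CPM in orco2 against 3620 to 4500 CPM in w1118 at day 40, and at 4947 to 6716 CPM in orco2 against 1442 to 1854 CPM in w1118 at day 3. Most of each sum was apolpp, the lipophorin precursor gene, at 7474 to 8834 CPM in orco2 against 3173 to 3931 CPM in w1118 at day 40, and at 4485 to 6282 CPM in orco2 against 1327 to 1715 CPM in w1118 at day 3. The 11 genes did not all share this order, since Yp3 had 96.2 to 110 CPM in old orco2 heads against 176 to 179 CPM in old w1118 heads, and Lsp1alpha 58.3 to 62.1 CPM in old orco2 heads against 54.2 to 82.2 CPM in old w1118 heads. All 11 were read in 3 of the groups and 10 in old orco2 heads, where Fbp2 was at 0, and their part in the Irc result was not tested.

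Cat had 529.6 and 491 CPM in orco2 against 282 and 360 CPM in w1118 heads at day 40, and 229 and 333 CPM in orco2 against 265 and 277 CPM in w1118 at day 3. Only the old orco2 heads stood clear of the rest. Cat rose with age in orco2 (0.86 ± 0.19, adjusted p = 0.0152 by edgeR), a call lost without either old orco2 library (adjusted p of 0.0602 and 0.102), and gave 0.25 ± 0.19 in w1118 (adjusted p = 0.425). Against w1118 at day 40 it reached 0.67 ± 0.19 (adjusted p = 0.0574 by edgeR). Cat passed there with DESeq2, voom, no filter and only the libraries compared, but not with DESeq2 size factors, library totals or the replicate block. An alternative added after the data were seen left out the 2 head libraries that differed from their partner in enterocyte markers. It gave 0.86 for Cat and 0.73 for Sod1 against w1118 at day 40. In that fit w1118 at day 40 and orco2 at day 3 were 1 library each, with their spread taken from the other groups. The w1118 library kept at day 40 had 155 CPM of enterocyte markers against 679 and 636 CPM in old orco2 heads. The genotypes were therefore not matched on this sum, most of which came from the amylase genes Amy-p and Amy-d in old orco2 heads. The protease genes alphaTry, betaTry and Jon65Aiv were at 0 CPM in both old orco2 libraries and in the kept w1118 library.

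**Figure D2:**
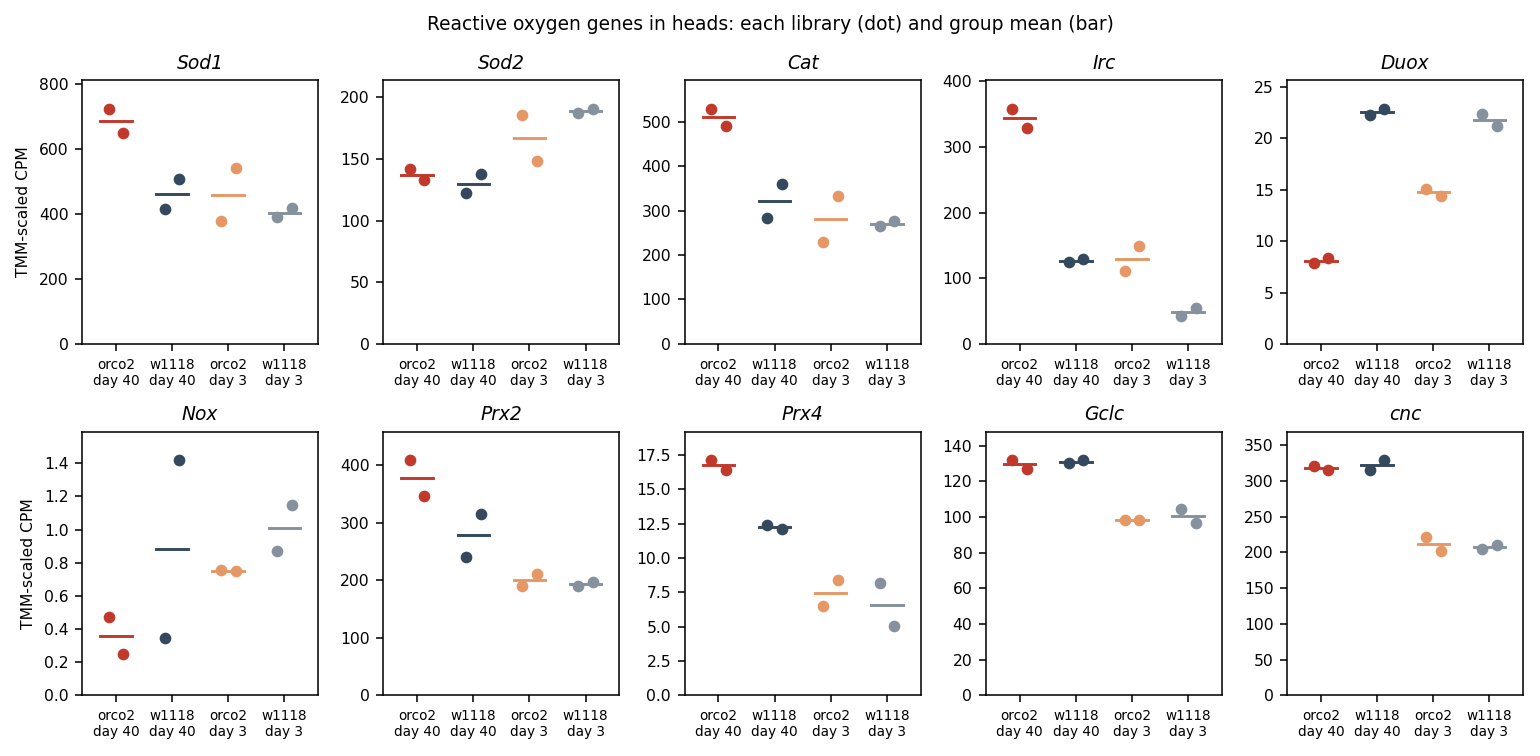
TMM-scaled CPM of the 10 genes in every head library (dots) with group means (bars), groups from left to right orco2 and w1118 at day 40 and orco2 and w1118 at day 3. Irc is highest in old orco2 heads (358 and 329 CPM) and Duox lowest there (7.84 and 8.36 CPM).

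Among the oxidases, Duox moved against Irc in orco2 heads. It was read at 7.84 and 8.36 CPM in orco2 against 22.3 and 22.9 CPM in w1118 at day 40, and at 15.1 and 14.4 CPM in orco2 against 22.4 and 21.2 CPM in w1118 at day 3, on 216 to 791 counts a library. Both w1118 ages sat together at 21.2 to 22.9 CPM, young orco2 heads below them and old orco2 heads lowest, with no overlap between genotypes. Duox fell in orco2 against w1118 by 1.48 ± 0.13 on the log2 scale at day 40 (2.79-fold lower, adjusted p = 0.00066 by edgeR), and this call held under all 12 alternatives run for it. At day 3 it fell by 0.56 ± 0.13 (adjusted p = 0.0372 by edgeR), a call lost without either w1118 day 3 library or orco2 day 3 replicate 2 (adjusted p from 0.0517 to 0.259). With age Duox fell in orco2 by 0.86 ± 0.13 (adjusted p = 0.00357 by edgeR, but 0.0509 without orco2 day 40 replicate 1), while w1118 gave 0.05 ± 0.13 (adjusted p = 0.818). The maturation factor gene mol, whose product Duox needs to mature, fell in orco2 heads at day 40 by 0.51 ± 0.13 (adjusted p = 0.0434 by edgeR). That call was lost without any 1 of the 4 libraries compared and held under 6 of 8 other settings.

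Head Nox was near the limit of detection, with 13 and 7 counts in orco2 against 12 and 49 counts in w1118 at day 40, and 22 and 20 counts in orco2 against 28 and 38 counts in w1118 at day 3. The old w1118 libraries alone lay at 0.346 and 1.42 CPM, wide enough to take in every other head library except orco2 day 40 replicate 2 at 0.247 CPM. No head comparison of Nox passed, with SEs of 0.69 to 1.01 on the log2 scale, so no difference was detectable at this depth.

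Both peroxiredoxins rose with age in orco2 heads, and Prx4 also in w1118 heads. Prx2 had 409 and 346 CPM in orco2 against 240 and 316 CPM in w1118 heads at day 40, and 190 and 210 CPM in orco2 against 190 and 196 CPM in w1118 at day 3. Prx4 was far scarcer, at 17.1 and 16.4 CPM in orco2 against 12.4 and 12.1 CPM in w1118 at day 40, and at 6.49 and 8.37 CPM in orco2 against 8.17 and 5.01 CPM in w1118 at day 3. For both genes, all old libraries lay above all young ones, and old orco2 above old w1118. In orco2, Prx2 rose with age by 0.92 ± 0.16 (adjusted p = 0.00564 by edgeR) and Prx4 by 1.17 ± 0.24 (adjusted p = 0.012). Without orco2 day 40 replicate 1 the Prx2 call was lost (adjusted p = 0.0558 by edgeR), and without either old orco2 library that of Prx4 (adjusted p of 0.0558 and 0.083). In w1118, Prx4 rose by 0.89 ± 0.24 (adjusted p = 0.0434 by edgeR), but not without w1118 day 3 replicate 2 or either old library (adjusted p from 0.15 to 0.228). Prx2 in w1118 gave 0.52 ± 0.15 (adjusted p = 0.0567 by edgeR), and 0.71 (adjusted p = 0.0441) without w1118 day 40 replicate 1. Neither gene passed between genotypes at day 40 (Prx2 at 0.44 ± 0.15, adjusted p = 0.103, and Prx4 at 0.45 ± 0.24, adjusted p = 0.246), though Prx2 did at 0.66 (adjusted p = 0.00106) without the 2 libraries set apart by enterocyte markers, where w1118 at day 40 was 1 library with the spread of the other groups.

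Gclc and cnc rose with age in both genotypes, and neither passed between genotypes. Gclc had 132 and 127 CPM in orco2 against 130.0 and 132 CPM in w1118 at day 40, and 98.1 and 98.2 CPM in orco2 against 104 and 96.9 CPM in w1118 at day 3. For cnc the values were 321 and 315 CPM in orco2 against 315 and 329 CPM in w1118 at day 40, and 221 and 202 CPM in orco2 against 205 and 209.6 CPM in w1118 at day 3. Old and young libraries were fully apart for both genes, and orco2 and w1118 overlapped at each age. With age, cnc rose by 0.59 ± 0.10 in orco2 (adjusted p = 0.00605 by edgeR) and by 0.63 ± 0.10 in w1118 (adjusted p = 0.00629). Gclc rose by 0.40 ± 0.10 in orco2 (adjusted p = 0.0211 by edgeR) and by 0.38 ± 0.10 in w1118 (adjusted p = 0.0344). The w1118 cnc call was lost without either young library or w1118 day 40 replicate 2 (adjusted p from 0.0595 to 0.0885), and those of Gclc without either old orco2 library (adjusted p of 0.0798 and 0.118) and without any 1 of the 4 w1118 libraries (adjusted p from 0.133 to 0.249). In orco2 against w1118, both genes gave -0.02 ± 0.10 at day 40 (adjusted p of 0.93 and 0.933 by edgeR).

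Set side by side, young orco2 heads differed from young w1118 heads in Irc, which was higher, and Duox, which was lower. Thus 1 of the 10 genes rose and 1 fell at day 3, against 4.85% of all 12243 tested genes that rose and 2.43% that fell, and the member median was 0.04 against 0.01 for all genes. The count of 2 changed to 4 without orco2 day 3 replicate 1, to 1 without any 1 of the other 3 libraries and to 5 without the 2 libraries set apart by enterocyte markers. Scaling by library totals alone split all calls 527 higher to 437 lower, against 594 to 297 with TMM. In the 10 lists of related genes, which hold 71 genes of which 64 were tested, 2 rose, 2 fell and 60 did not pass. GstE1, an epsilon-class glutathione transferase, rose by 2.20 ± 0.22 (51.0 against 11.1 CPM, adjusted p = 0.0012 by edgeR) and norpA, the phospholipase C of phototransduction that also acts upstream of Duox in the gut, by 0.50 ± 0.09. Rsod, a relative of the superoxide dismutases, fell by 2.07 ± 0.41 and MtnA, a metallothionein, by 0.62 ± 0.15. Of these 4, GstE1 passed without each library in turn.

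At day 40 the pair of member changes was again Irc higher and Duox lower in orco2 heads. That made 1 gene that rose and 1 that fell, against 8.06% and 4.89% of all tested genes, and the member median was 0.26 against -0.00. The count of 2 was the same without each library in turn and became 5 without the 2 libraries set apart by enterocyte markers, of which w1118 day 40 replicate 2 belongs to this comparison. Library totals alone split all calls 741 higher to 1383 lower, against 987 to 599 with TMM, and moved the median of all genes to -0.17. Among related genes, 9 rose, 4 fell and 51 did not pass. Glutathione transferases made up 4 of those that rose, with GstE1 at 3.02 ± 0.22 (145 against 17.9 CPM, adjusted p = 0.00041 by edgeR), GstE3 at 1.14 ± 0.23, GstD1 at 0.85 ± 0.22 and GstS1 at 0.81 ± 0.16. The mitochondrial peroxiredoxin gene Prx3 (0.83 ± 0.11) and Prx6c (1.34 ± 0.33) rose as well. So did Men (0.87 ± 0.18) and Idh (0.89 ± 0.17), whose enzymes supply NADPH, and ref(2)P (0.47 ± 0.12), an autophagy receptor gene. Rsod (-3.46 ± 0.44), mol (-0.51 ± 0.13), MtnA (-0.71 ± 0.15) and the BET family gene fs(1)h (-0.51 ± 0.13) fell. Of these 13, GstE1, Prx3 and Rsod passed without each library in turn.

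Ageing of orco2 heads changed most of the members. Irc, Prx4, Prx2, Cat, cnc and Gclc rose and Duox fell, so 6 of 10 rose against 12.8% of all tested genes and 1 fell against 11.4%, with a member median of 0.59 against -0.01. The count of 7 became 9 without orco2 day 3 replicate 2, 2 without orco2 day 40 replicate 1 and 4 without orco2 day 40 replicate 2. Calls over all genes moved in the same direction in each of these fits. Library totals alone split all calls 1306 higher to 1853 lower, against 1569 to 1398 with TMM, and moved the median of all genes to -0.11. Of the related genes, 20 rose, 4 fell and 40 did not pass. Of the 10 glutathione transferases listed 6 rose, led by GstE1 (1.51 ± 0.21), GstS1 (1.05 ± 0.16), GstE7 (1.43 ± 0.29) and GstD2 (1.48 ± 0.36). Of the 5 NADPH supply genes 4 rose, led by Idh (1.16 ± 0.17), Pgd (1.36 ± 0.27) and Men (0.84 ± 0.18). The mitochondrial malic enzyme gene Men-b fell (-0.88 ± 0.17). Prx6c (1.67 ± 0.34), CG12896 (1.62 ± 0.32) and Prx6b (1.23 ± 0.29) rose too, but these peroxiredoxin genes are near copies and the treatment of reads that map to several places is not given. The same doubt holds for the glutathione transferases of the D and E clusters. Further genes that rose were ref(2)P (0.94 ± 0.12), foxo (0.52 ± 0.15), Txl (0.60 ± 0.14), the glutathione synthetase gene Gss1 (1.02 ± 0.24), MtnA (0.83 ± 0.15) and the ferritin subunit genes Fer1HCH (0.73 ± 0.12) and Fer2LCH (0.39 ± 0.12). Pxn, the peroxidasin gene (-0.63 ± 0.10) and a haemocyte marker too, CanB, a calcineurin subunit gene (-0.66 ± 0.11), and norpA, also a photoreceptor marker (-0.59 ± 0.09), fell. GstE1, GstS1, Idh and ref(2)P were the 4 of 24 that passed without each library in turn.

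In ageing w1118 heads, Irc, cnc, Prx4 and Gclc rose and Sod2 fell. That was 4 of 10 higher against 8.56% of all tested genes and 1 lower against 7.23%, and the member median was 0.31 against 0.04. Without single w1118 libraries the count of 5 dropped to 2 (day 3 replicate 1), 1 (day 3 replicate 2), 3 (day 40 replicate 1) and 1 (day 40 replicate 2). Of the related genes, 3 fell and 10 rose, with 51 not passing, and 0 of the 13 passed without each library in turn. GstS1 (0.85 ± 0.16), GstE7 (1.45 ± 0.29), MtnA (0.92 ± 0.15), Fer1HCH (0.45 ± 0.12), Idh (0.65 ± 0.17), Men (0.65 ± 0.18), Prx6c (1.38 ± 0.34), Prx6b (1.18 ± 0.29), the second glutathione synthetase gene Gss2 (1.73 ± 0.48) and p38c (1.73 ± 0.46) rose, and Pxn (-0.58 ± 0.10), CanB (-0.66 ± 0.11) and Men-b (-0.87 ± 0.17) fell. Neuron markers were lower in sum in the old heads of both genotypes, with 3893 to 3950 CPM in orco2 against 4568 to 5040 CPM in w1118 at day 40, and 6081 to 8317 CPM in orco2 against 7907 to 8085 CPM in w1118 at day 3, over 7 genes all read in each group. The 8 muscle genes used as visceral muscle markers in guts, all read in each head group, were lower in sum as well. At day 40 they summed to 2844 to 3311 CPM in orco2 against 2641 to 3295 CPM in w1118. At day 3 they summed to 6277 to 6384 CPM in orco2 against 6563 to 6801 CPM in w1118. The 10 photoreceptor markers, all read in each group, were higher in sum in old heads. At day 40 the sums were 95782 to 100432 CPM in orco2 against 96550 to 101384 CPM in w1118. At day 3 they were 77581 to 77836 CPM in orco2 against 58697 to 61937 CPM in w1118. Not all these genes shared the order, since norpA fell with age in orco2 heads, as given above. The part of these markers in the age changes was not tested.

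The age change was set directly between genotypes by the interaction term, the age change in orco2 less that in w1118. It called 0 of 10 members by edgeR, against 0% of all tested genes higher and 0.00817% lower, with 1 member at an unadjusted p under 0.05, 0 called by limma-voom and 1 by the DESeq2 Wald test. That member was Duox (-0.92 ± 0.18, adjusted p = 0.22 by edgeR), which DESeq2 called at -0.90 (adjusted p = 0.0203). Duox also passed without orco2 day 3 replicate 1 (adjusted p = 0.048 by edgeR) or replicate 2 (adjusted p = 0.0441), and Cat passed without orco2 day 3 replicate 2 at 0.97 (adjusted p = 0.0421), against 0.61 ± 0.27 (adjusted p = 0.508) with all libraries. For Irc the term was 0.03 ± 0.24, for Gclc 0.02 ± 0.14 and for cnc -0.04 ± 0.14, and 0 of 64 related genes passed (edgeR).

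**Figure D3:**
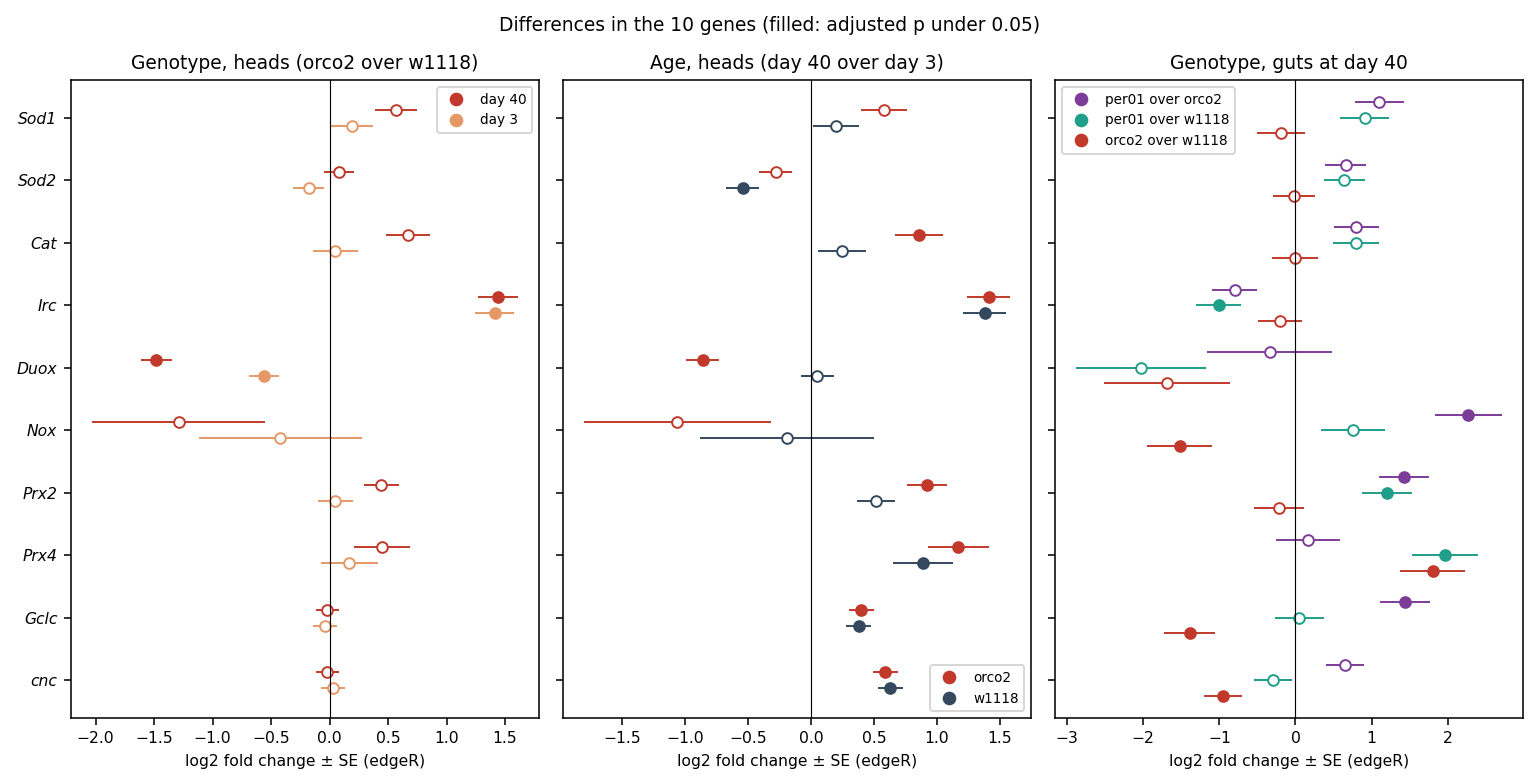
Log2 fold change of each gene in the comparisons of heads and guts (points, with bars of ± 1 SE derived from edgeR's F statistic), filled where the adjusted p was under 0.05. Irc lies near 1.4 in all 4 head comparisons, and Duox at -1.48 in orco2 against w1118 heads at day 40.

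In guts, Sod1, Sod2 and Cat had higher means in per01 than in orco2 or w1118, but none passed. Sod1 had 459, 615 and 986.5 CPM in per01, 384, 258 and 320.5 CPM in orco2 against 353, 332 and 413 CPM in w1118. Sod2 had 136, 221 and 256 CPM in per01, 136, 124 and 128 CPM in orco2 against 102, 139 and 154 CPM in w1118. Cat had 852, 1131 and 1601 CPM in per01, 848, 534 and 679 CPM in orco2 against 734, 635 and 704 CPM in w1118. For Sod1 and Cat every per01 library lay above every other gut library. Against w1118, Sod1 reached 0.91 ± 0.32 (adjusted p = 0.0789 by edgeR), Cat 0.79 ± 0.30 (adjusted p = 0.105) and Sod2 0.64 ± 0.27 (adjusted p = 0.135). Without per01 replicate 1, all 3 passed against w1118, Sod1 at 1.13 (adjusted p = 0.0321 by edgeR), Cat at 0.99 (adjusted p = 0.0452) and Sod2 at 0.86 (adjusted p = 0.0334). They also passed against orco2, Sod1 at 1.32 (adjusted p = 0.0123), Cat at 0.99 (adjusted p = 0.0288) and Sod2 at 0.88 (adjusted p = 0.0186). These per01 levels depended on the scaling, since the TMM factors were 0.956, 0.700 and 0.640 for per01 and 1.11 to 1.19 for the other gut libraries. With library totals alone the changes against w1118 were 0.27 for Sod1, 0.16 for Cat and 0.01 for Sod2, while the median of all genes moved to -0.53. Enterocyte markers were high in per01 as well, with 101342, 148812 and 192412 CPM there, 32471, 16841 and 24856 CPM in orco2 against 24467, 9529 and 9016 CPM in w1118 over 9 genes all read in each group. Their part in the per01 results was not tested.

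Irc behaved otherwise in the gut. It had 26.5, 49.0 and 52.1 CPM in per01, 78.1, 70.2 and 73.8 CPM in orco2 against 69.8, 108 and 78.3 CPM in w1118. All 3 per01 libraries lay below the rest, and orco2 and w1118 overlapped. Irc fell in per01 against w1118 by 1.01 ± 0.29 (2.01-fold lower, adjusted p = 0.044 by edgeR) and gave -0.20 ± 0.29 in orco2 against w1118 (adjusted p = 0.59). The per01 call was lost without w1118 replicate 2 or 3 or per01 replicate 1 or 2 (adjusted p from 0.0518 to 0.134).

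Duox was scarce in every gut but 1. It was read at 40, 14 and 46 counts in per01, 98, 74 and 56 counts in orco2 against 77, 73 and 374 counts in w1118. These were 1.20, 0.71 and 2.14 CPM in per01, 2.03, 1.88 and 1.22 CPM in orco2 against 1.71, 1.93 and 13.03 CPM in w1118. The w1118 mean of 5.56 ± 6.48 CPM (SD, n = 3) thus rested on replicate 3, and the remaining 8 gut libraries lay between 0.71 and 2.14 CPM. Neither mutant passed against w1118 (per01 at -2.03 ± 0.85, adjusted p = 0.129, and orco2 at -1.69 ± 0.83, adjusted p = 0.139, by edgeR). The maturation factor gene mol fell in both, by 2.51 ± 0.42 in per01 (adjusted p = 0.00861 by edgeR) and to 6.79 CPM in orco2 against 27.25 CPM in w1118 (adjusted p = 0.0131), and the per01 call held without each library in turn.

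Nox separated orco2 guts from the other genotypes. It had 5.08, 12.3 and 6.43 CPM in per01, 1.29, 2.18 and 1.46 CPM in orco2 against 5.12, 5.13 and 3.90 CPM in w1118, on 62 to 243 counts a library. Each orco2 library lay below each other library, while per01 and w1118 overlapped. Nox fell in orco2 against w1118 by 1.52 ± 0.43 (2.87-fold lower, adjusted p = 0.0341 by edgeR) and rose in per01 against orco2 by 2.27 ± 0.44 (4.82-fold, adjusted p = 0.0335). The first call was lost without any 1 of its 6 libraries (adjusted p from 0.0589 to 0.12), and the second held without per01 replicate 1 and was lost without any 1 of the other 5 (adjusted p from 0.0785 to 0.175).

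Gclc and cnc were also low in orco2 guts, and for cnc the place of per01 turned on the scaling. Gclc had 294, 333.5 and 606 CPM in per01, 172, 133 and 149 CPM in orco2 against 511, 317 and 365 CPM in w1118. The gene cnc had 217, 274 and 369.5 CPM in per01, 199, 172 and 176 CPM in orco2 against 412, 289 and 356 CPM in w1118. For both genes every orco2 library lay below every other, and per01 overlapped w1118. Gclc fell in orco2 against w1118 by 1.39 ± 0.33 (2.62-fold lower, adjusted p = 0.0207 by edgeR) and cnc by 0.95 ± 0.25 (1.94-fold lower, adjusted p = 0.0297). Gclc rose in per01 against orco2 by 1.44 ± 0.33 (2.71-fold, adjusted p = 0.0468 by edgeR), where cnc gave 0.65 ± 0.25 (adjusted p = 0.103), or 0.82 (adjusted p = 0.0313) without per01 replicate 1. With library totals alone, cnc passed as lower in per01 against w1118 as well (-0.91, adjusted p = 0.00587 by edgeR) and gave -0.01 in per01 against orco2 (adjusted p = 0.97), so its low level did not then set orco2 apart from per01. On that scaling Gclc gave 0.76 in per01 against orco2 (adjusted p = 0.0742 by edgeR) and no longer passed, and -0.58 in per01 against w1118 (adjusted p = 0.119). In orco2 against w1118, Gclc was lost without any 1 orco2 library (adjusted p from 0.0577 to 0.0877) and cnc without any library other than w1118 replicate 2 (adjusted p from 0.0562 to 0.108). In per01 against orco2, Gclc held without per01 replicate 1 and was lost without any 1 of the other 5 (adjusted p from 0.106 to 0.199). Stem cell and enteroblast markers summed to 22.1, 18.0 and 39.6 CPM in per01, 18.9, 24.1 and 18.4 CPM in orco2 against 70.3, 75.6 and 64.5 CPM in w1118, over 5 genes of which per01 lacked sna alone. The listed markers esg and Dl were not matched and are not in these sums. Visceral muscle markers summed to 2669 to 3719 CPM in per01, 1600 to 2039 CPM in orco2 against 4344 to 6399 CPM in w1118, over 8 genes all read in each group. Copper and iron cell markers (3 genes) summed to 85.4 to 134 CPM in orco2. Their sums were 249 to 334.5 CPM in per01 and 166 to 227 CPM in w1118. Glia markers (7 genes) summed to 536 to 600 CPM in orco2, 728.5 to 1268 CPM in per01 and 747 to 1530 CPM in w1118. Every orco2 library lay below every other for visceral muscle, copper and iron cell and glia markers. No other marker list had that order. The part of these cells in the orco2 levels of Nox, Gclc and cnc was not tested.

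Prx4 was higher in both mutants than in w1118 guts, and Prx2 in per01 alone. Prx4 had 85.3, 94.4 and 95.4 CPM in per01, 63.5, 98.8 and 84.3 CPM in orco2 against 38.8, 21.6 and 10.3 CPM in w1118. Both mutants lay fully above w1118 and overlapped each other. Prx4 rose in per01 against w1118 by 1.96 ± 0.43 (3.89-fold, adjusted p = 0.0192 by edgeR) and in orco2 against w1118 by 1.80 ± 0.43 (3.49-fold, adjusted p = 0.0206), and these comparisons share the w1118 libraries. The per01 call was lost without w1118 replicate 2 or per01 replicate 2 (adjusted p of 0.0545 and 0.0663), and the orco2 call without orco2 replicate 2 or 3 (adjusted p of 0.07 and 0.0746). Testis and accessory gland markers summed to 3796, 10595 and 386 CPM in per01, 3759, 6110 and 5057 CPM in orco2 against 125, 281 and 283 CPM in w1118, over 9 genes all read in each group. Their part in the Prx4 result was not tested.

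Prx2 was read at 559, 552 and 1066 CPM in per01, against 315, 223 and 277 CPM in orco2 against 397, 269.6 and 283 CPM in w1118. Every per01 library lay above all others. It rose in per01 against w1118 by 1.20 ± 0.33 (2.29-fold, adjusted p = 0.0385 by edgeR) and against orco2 by 1.42 ± 0.33 (2.67-fold, adjusted p = 0.0486). The first call was lost without w1118 replicate 2 or 3 or per01 replicate 2 or 3 (adjusted p from 0.06 to 0.128), and the second without any library other than per01 replicate 1 (adjusted p from 0.0989 to 0.204). With library totals alone neither passed (0.57, adjusted p = 0.136, and 0.75, adjusted p = 0.0824).

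**Figure D4:**
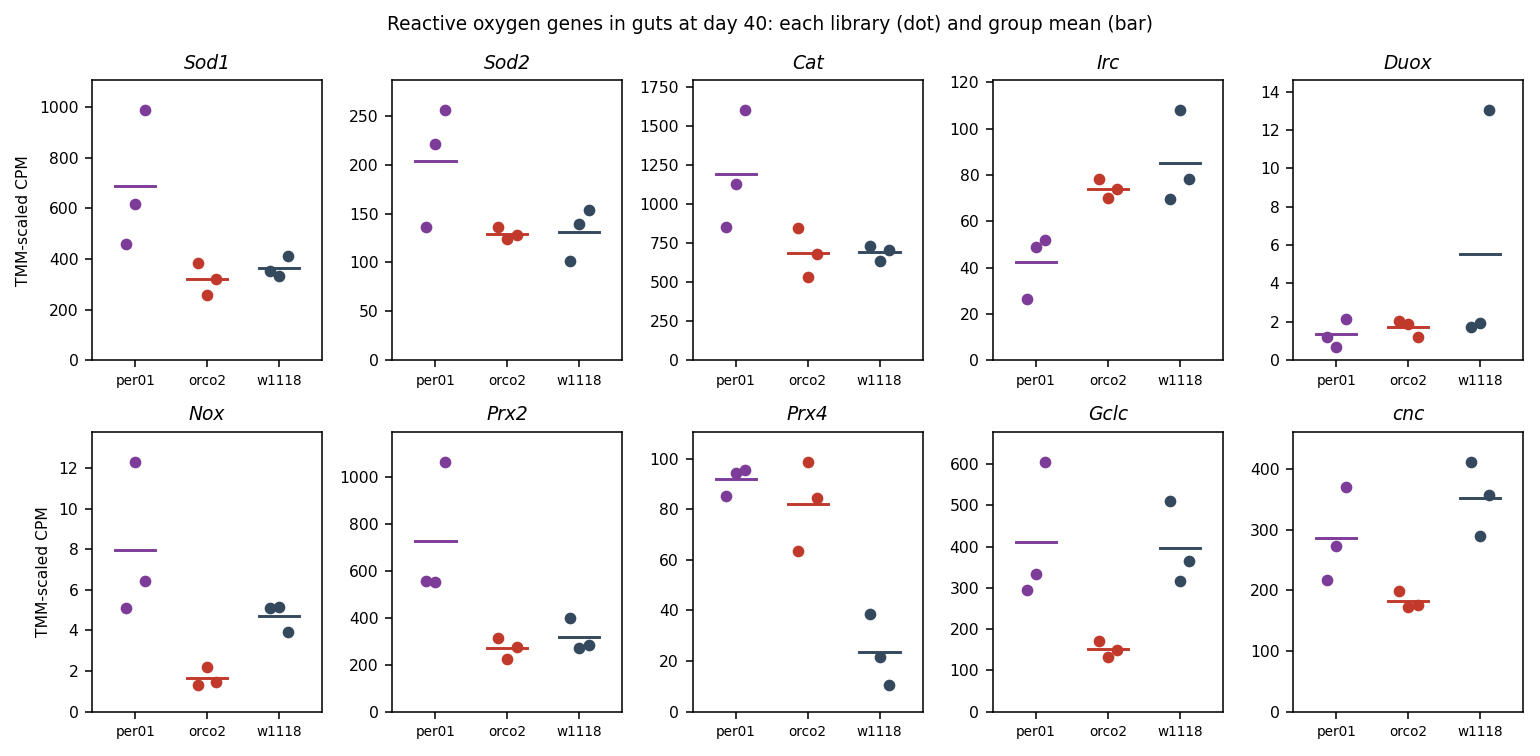
TMM-scaled CPM of the 10 genes in every gut library at day 40 (dots) with group means (bars), groups from left to right per01, orco2 and w1118. Prx4 is higher in both mutants than in w1118 (10.3 to 38.8 CPM), Nox, Gclc and cnc are lowest in orco2 on this scaling (with library totals cnc differs by -0.01 between per01 and orco2), and the Duox mean of w1118 rests on 1 library at 13.03 CPM.

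Old per01 guts against w1118 therefore showed Prx4 and Prx2 higher and Irc lower. That was 2 of 10 higher against 9.66% of 13453 tested genes and 1 lower against 9.33%, and the member median was 0.69 against 0.00. The count of 3 became 5 without per01 replicate 1, 2 without per01 replicate 3, 1 without w1118 replicate 3 and 0 without w1118 replicate 2 or per01 replicate 2. Over all genes, leaving out single libraries gave 973 to 2937 calls, against 2554 with all libraries. Library totals alone split all calls 751 higher to 3588 lower, against 1299 to 1255 with TMM. Of the members it called Prx4 as higher (1.38, adjusted p = 0.0457 by edgeR) and Irc (-1.65, adjusted p = 0.00133), cnc (-0.91, adjusted p = 0.00587) and Duox (-2.62, adjusted p = 0.0494) as lower, which made 1 higher and 3 lower in place of 2 and 1. Of 69 related genes tested, 6 rose, 8 fell and 55 did not pass. Prx6c (2.44 ± 0.31), the glutaredoxin gene Grx1 (1.55 ± 0.31), GstD1 (1.11 ± 0.32), GstO2 (1.01 ± 0.29), Txl (0.79 ± 0.21) and the metallothionein gene MtnD (2.31 ± 0.53) rose, of which Txl, GstO2 and GstD1 did not pass with library totals alone. GstE1 (-3.10 ± 0.39), Rsod (-4.78 ± 1.00), CG10211 (-2.08 ± 0.45), Zw (-0.77 ± 0.22) and 4 genes of Duox maturation and regulation fell, namely mol, the inositol trisphosphate receptor gene Itpr (-1.11 ± 0.29), the kinase gene Mekk1 (-0.93 ± 0.24) and norpA (-0.90 ± 0.22). Prx6c, GstE1, Rsod and mol were the 4 of 14 that passed without each library in turn.

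In old orco2 guts against w1118, Prx4 was higher and Gclc, Nox and cnc were lower. That made 1 of 10 higher against 11.5% of all tested genes and 3 lower against 15.1%, with a member median of -0.21 against 0.06. The count of 4 became 2 without w1118 replicate 1 or 3, 1 without orco2 replicate 1 and 0 without orco2 replicate 2 or 3, and it was 3 without w1118 replicate 2. Over all genes, these fits gave 590 to 3198 calls, against 3573 with all libraries. Of the related genes, 3 rose, 20 fell and 46 did not pass. Glutathione synthesis genes fell with Gclc, namely its partner subunit gene Gclm (-1.16 ± 0.37), Gss1 (-1.88 ± 0.51) and Gss2 (-1.88 ± 0.49). Among the partners and regulators of cnc, Keap1 (-1.99 ± 0.30), foxo (-1.08 ± 0.27), ref(2)P (-1.08 ± 0.34) and fs(1)h (-1.02 ± 0.22) fell. Of the Duox regulation list 5 of 12 fell, led by norpA (-1.46 ± 0.22), Mekk1 (-1.44 ± 0.24), Itpr (-1.64 ± 0.29) and mol. Further genes that fell were Rsod (-4.38 ± 0.97), the copper chaperone gene Ccs (-1.02 ± 0.29), Pxn (-0.91 ± 0.27), CG42331 (-3.30 ± 0.86), GstD2 (-1.73 ± 0.52), Zw (86.4 against 173 CPM), MtnA (-1.63 ± 0.44) and MtnC (-3.47 ± 0.85). GstS1 (2.32 ± 0.43), CG12896 (1.01 ± 0.26) and the ferritin gene Fer3HCH (2.34 ± 0.68) rose. Keap1, GstS1, Mekk1 and norpA were the 4 of 23 that passed without each library in turn.

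Between the mutants, per01 guts had more Nox, Gclc and Prx2 than orco2 guts. That was 3 of 10 higher against 3.33% of all tested genes and 0 lower against 2.07%, with a member median of 0.73 against 0.08. The count of 3 became 7 without per01 replicate 1 and 0 without any 1 of the other 5 libraries. Over all genes, the calls went from 726 to 5211 without per01 replicate 1, and to as few as 19 without another library. Library totals alone split all calls 263 higher to 1752 lower, against 448 to 278 with TMM, moved the median of all genes to -0.56 and called 2 members, Nox at 1.60 (adjusted p = 0.035) and Irc at -1.49 (adjusted p = 0.0157). Of the related genes, 4 rose, 1 fell and 64 did not pass. MtnC (5.29 ± 0.93), Prx6c (2.29 ± 0.31), Prx6b (1.49 ± 0.30) and Keap1 (1.32 ± 0.29) rose and GstE1 fell by 2.87 ± 0.39, and 0 of the 5 passed without each library in turn.

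Old w1118 guts and old w1118 heads were counted in separate tables, so their levels were set side by side with no test. Nox was 5.34 times as high per kilobase in guts as in heads (0.716 against 0.134 CPM per kb), Gclc 3.03 times (90.3 against 29.8 CPM per kb), Cat 2.15 times (346.7 against 161 CPM per kb) and Prx4 1.93 times (18.6 against 9.63 CPM per kb). Duox went the other way, with 1.04 CPM per kb in guts and 4.23 CPM per kb in heads, and the gut value was 2.44 CPM per kb in replicate 3 against 0.320 and 0.362 CPM per kb in the other libraries. Prx4 libraries of w1118 guts ran from 8.15 to 30.5 CPM per kb and overlapped those of heads, at 9.51 and 9.74 CPM per kb. The head Nox libraries were 0.05255 and 0.2155 CPM per kb, on 12 and 49 counts. For Sod1, Sod2, Irc, Prx2 and cnc the ratio of gut to head lay between 0.673 and 1.14.

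The genes most like Duox over the 8 head libraries, among 8168 genes with a mean of at least 5 CPM, were CG42671 (Pearson r = 0.987 of log2(CPM + 1)), CG43373 (r = 0.987) and klar (r = 0.979). Those most like Nox over the 9 gut libraries, among 9472 genes, were CG9988 (r = 0.960), CG1572 (r = 0.958) and nkd (r = 0.949). These values describe likeness over libraries that share genotype and age groups and carry no test.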

How the data were processed

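Raw read counts per gene, deposited by the authors as 1 table per tissue, were used for 8 head and 9 gut libraries, with columns named through the deposited readme. Per the submitters' processing notes they came from fastp, HISAT2 and featureCounts against dm6, before DESeq2. Annotation release, strand and multi-mapping settings are not given in the sources used here. Between 60.3 and 75.5% of the counts from 1 to 20 were even, so counting error may exceed that of independent reads.

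Heads and guts had separate fits in edgeR 4.0.16 under R 4.3.3 (TMM, filterByExpr with a minimum count of 10, glmQLFTest on group means, Benjamini-Hochberg threshold 0.05), after tests on simulated data. Alternatives used DESeq2 1.42.0, limma 3.58.1 (voom), other scalings, no filter, a replicate block, fewer libraries, or longest transcript lengths.

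The members, the lists of related genes and the cell markers were chosen with earlier results of these data known. Related genes that passed were named, at most 4 per list by smallest p. Sequences are not used here. Nnt and 1 more gene of the related lists were not matched, nor were 2 stem cell and enteroblast markers, esg and Dl.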

Additional observations from a re-analysis of the deposited data

How the results depend on the processing

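Of 26 calls of members, 322 values under alternatives gave 228 still called, 94 no longer called and 0 reversed. The 54 values not called gave 698, of which 53 passed and 59 changed sign without passing. The number of members called in orco2 against w1118 heads was 2 at each age. At day 3 it became 1 with no filter, 1 with only the libraries compared and 5 without the 2 libraries set apart by enterocyte markers. At day 40 it became 4 with no filter, and 5 with DESeq2, with only the libraries compared and without those 2. For ageing, library totals gave 3 in w1118 (5 before) and only the libraries compared gave 4 in orco2 (7 before). The interaction called 1 with DESeq2 and 1 without the 2 libraries. Guts of per01 against w1118 (3 calls) gave 6 with DESeq2 and 1 with only the libraries compared. Guts of per01 against orco2 (3 calls) gave 1 with DESeq2 size factors, 1 with no filter, 6 with DESeq2 and 5 with voom. Leaving out single libraries gave 1 to 4 at day 3, 1 to 3 for ageing w1118, 2 to 9 for ageing orco2, 0 to 2 for the interaction, and 0 to 3, 0 to 5 and 0 to 7 for guts of orco2 against w1118, per01 against w1118 and per01 against orco2. Causes were not tested, and the calls over all genes also moved with the library left out. Over all genes, other fits and single libraries left out gave 278 to 3817 at day 3 (891 before), 319 to 3577 at day 40 (1586), 447 to 3816 for ageing w1118 (1933), 771 to 4501 for ageing orco2 (2967), 0 to 614 for the interaction (1), 590 to 6506 and 973 to 4376 for guts of orco2 (3573) and per01 (2554) against w1118, and 19 to 5211 for per01 against orco2 (726). Of 96 calls of related genes, 16 held without each library in turn and 0 values reversed.

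With the replicate block the counts were 1 at day 3, 2 for ageing w1118, 1 for per01 against w1118 guts and 0 for per01 against orco2 guts. The block is a check only, since same-numbered libraries correlated at -0.264 to 0.055 in heads and -0.551 to 0.263 in guts, and the numbers do not pair them.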

Other observations

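Rsod, a relative of the superoxide dismutases, was lower in every mutant group than in w1118 of the same tissue and age. It averaged 0.882 CPM in orco2 heads against 9.69 CPM in w1118 heads at day 40, and 1.80 CPM in orco2 against 7.59 CPM in w1118 at day 3. In guts it averaged 0.354 CPM in per01, 0.487 CPM in orco2 and 10.2 CPM in w1118, and the gut comparisons share the w1118 libraries. GstE1 differed by tissue, at 145 CPM in orco2 heads against 17.9 CPM in w1118 heads at day 40, but at 8.59 CPM in per01, 62.6 CPM in orco2 and 73.7 CPM in w1118 guts. These genes were singled out after their values were seen, and the difference between tissues was not tested.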
